A study of Mus musculus with 8 samples.

Results

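Chemokines are small secreted proteins that attract leukocytes, and chemokine receptors are the G protein-coupled receptors through which cells follow them. The expression of 53 such genes, 35 ligands and 18 receptors, was examined here among 18138 gene names measured on beadchips in OT-1 T cells that had been activated by B cells or by dendritic cells. Members were chosen by name alone: CCL, CXCL, XCL or CX3CL and a digit for ligands, CCR, CXCR, XCR or CX3CR and a digit for receptors. Ligands are classed as C, CC, CXC or CX3C by the spacing of their first cysteines, and receptors are named after the class they bind. In CD8+ T cells, Ccr7 is known to guide naive cells into lymph nodes and Cxcr3 to guide effector cells to inflamed tissue, while activated cells themselves secrete ligands such as Ccl3, Ccl4, Ccl5 and Xcl1.

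OT-1 cells are mouse CD8+ T cells with a transgenic receptor for an ovalbumin peptide presented on H2-Kb. In the cB group (4 arrays) they had been cultured for 24 h at a ratio of 5 to 1 with B cells activated through CD40, and in the DC group (4 arrays) with dendritic cells. Both kinds of stimulator had been grown in culture, treated with LPS for maturation and given the peptide, and in both groups the CD8+ CD69+ cells were sorted. Unstimulated T cells are not among the samples, so a difference between the groups does not say which of them moved. Nothing in the labels ties the replicates to separate cultures or animals, and the p-values therefore measure the spread between these arrays, which may be technical.

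Values are given first as intensity, the deposited average bead signal on a linear scale without background subtraction. The estimated mean of the negative controls lay between 148 and 167 intensity units per array, and intensities near it are background. Differences are on the log2 scale after background correction and quantile normalization, always cB minus DC, with the standard error (SE) of a limma fit over all genes tested (4 arrays per group). The threshold was a Benjamini-Hochberg adjusted p of 0.05. Of the 18138 genes, 7167 were tested, those with a detection p under 0.05 on 4 or more arrays of 8. The mean intensity of an array was between 602 and 824, and correlations between arrays ranged from 0.979 to 0.990 within groups and from 0.863 to 0.883 across them. The T cell markers Cd3d, Cd3e, Cd3g, Lck and Cd8b1 were detected on all 8 arrays, whereas the row of Cd8a, a gene of the sort itself, was detected on none.

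Markers of the stimulator cells were measured on both groups of arrays. Of 13 B cell markers in the table, between 6 and 8 were detected on a cB array and 2 on each DC array, with summed intensities of 2754 to 3100 on cB and 2707 to 3213 on DC arrays. Cd79b had 297 to 351 units on cB arrays against 143 to 176 on DC arrays. Fcmr, in the table as Faim3, had 299 to 454 units on cB and 159 to 178 on DC arrays, whereas Pou2af1 was higher on DC arrays (428 to 480 on cB against 687 to 1030 on DC arrays). The B cell markers Cd22, Pax5 and Cr2 were detected nowhere, and Ms4a1 was detected on 1 cB array only. Outside that list, and chosen after its values were seen, Mzb1 (in the table as 2010001M09RIK), a gene of marginal zone B cells and plasma cells, had a mean log2 value of 10.34 in cB against 5.12 in DC, a difference of 5.22 ± 0.22 (SE, limma adjusted p = 5.56e-08). Of 18 myeloid and dendritic cell markers, between 4 and 6 were detected on a cB array and between 7 and 9 on a DC array, with summed intensities of 5379 to 6954 on cB and 6660 to 6855 on DC arrays. Cd14 had 160 to 186 units on cB arrays, where it was not detected, against 267 to 382 on DC arrays. The brightest marker of that list, Cst3, had 2556 to 3789 units on cB and 3310 to 3553 on DC arrays. Cd86 (241 to 306 on cB against 180 to 202 on DC arrays) and Fscn1 (269 to 355 on cB against 178 to 210 on DC arrays) were higher on cB arrays, and Itgax, Itgam, Csf1r, Clec9a and Flt3 were detected on none. Higher on DC arrays were also Il1b, at 154 to 172 on cB against 212 to 342 on DC arrays, Cd68 (log2 difference -0.99) and Fcer1g (-1.15). The part of these cells in the results was not tested. In RNA from a sorted population, fewer expressing cells and less RNA per cell cannot be told apart.

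Most of the family was not detected. On at least 1 array 14 of 35 ligands and 9 of 18 receptors were detected, while 21 ligands and 9 receptors were detected on none, with intensities between 124 and 193. The number of ligands detected on an array was 7 to 10 in cB and 10 to 12 in DC. For receptors it was 7 or 8 in cB and 5 to 7 in DC. Ligands detected nowhere were Ccl1, Ccl2, Ccl6, Ccl7, Ccl11, Ccl20, Ccl21a, Ccl21c, Ccl22, Ccl24, Ccl26, Ccl28, Cx3cl1, Cxcl3, Cxcl4 (now Pf4), Cxcl11, Cxcl12, Cxcl13, Cxcl14, Cxcl15 and Cxcl17. The receptors Ccr1, Ccr1l1, Ccr2, Ccr3, Ccr4, Ccr9, Ccr10, Cxcr7 (now Ackr3, a scavenger of Cxcl12) and Xcr1 were likewise detected nowhere. Such a gene may still be expressed below what its probe can show.

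**Figure D1:**
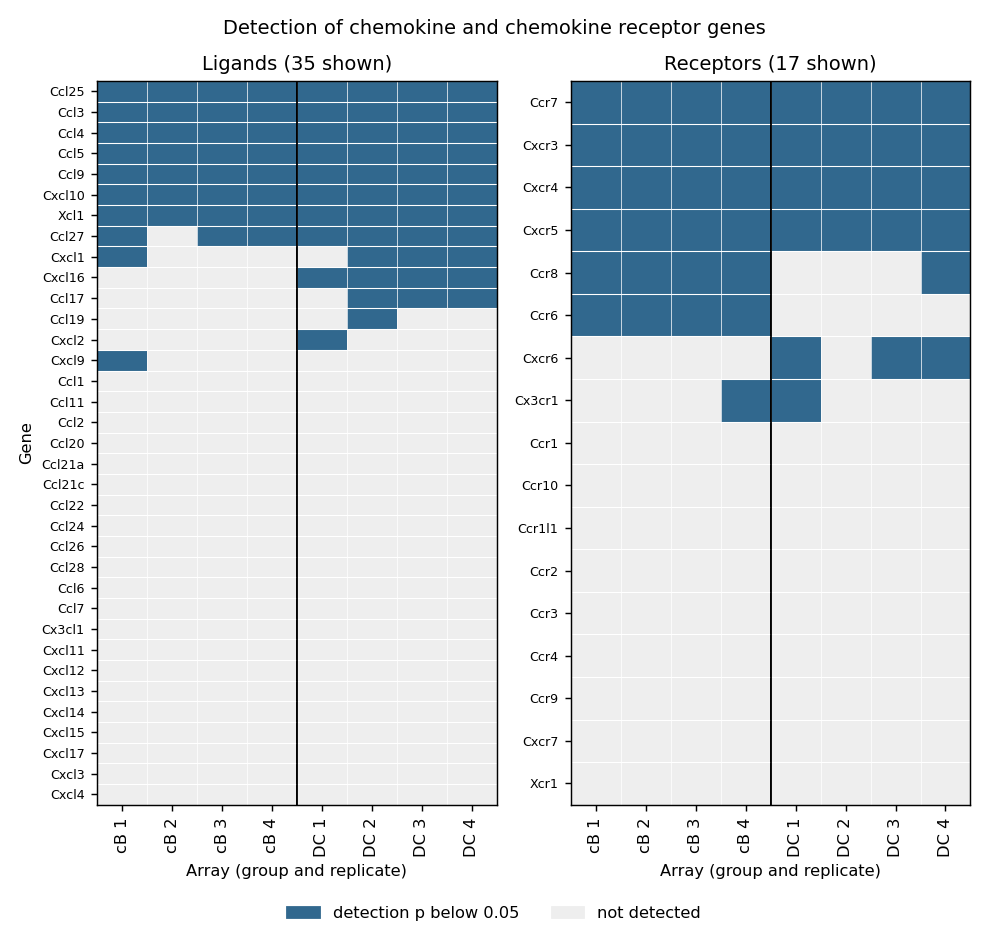
Detection of each of the 35 ligands (left) and 17 of the 18 receptors (right), in rows, on the 4 cB and the 4 DC arrays, in columns. Dark tiles have a detection p below 0.05: 7 ligands and 4 receptors are dark on all 8 arrays, and 21 ligands and 9 receptors on none.

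Among the ligands, Xcl1, Ccl9 and Ccl3 were higher in cB-stimulated cells, and Ccl5 and Cxcl16 were higher in DC-stimulated cells, each without overlap between the groups. Ccl4 was at a similar intensity in both. Of the 10 ligands tested, 3 were higher in cB (29.8% of all genes tested were) and 4 higher in DC (31.6% of all genes tested), which makes 7 called against 61.4% of all genes. The groups did not overlap in 5 of the 10, against 56.8% of all genes tested. Without DC replicate 2 the count of ligands called was 4, and it was also 4 without DC replicate 4, each time with 3 on the cB side and 1 on the DC side. The number higher in DC was 2 without cB replicate 1, 2 or 3 or DC replicate 3, and 3 without cB replicate 4 or DC replicate 1, and Ccl5 was among those called in every case. With the background estimated from all genes, 3 ligands were higher in cB, against 2 that were higher in DC. Cxcl16 is among those higher in DC although it entered the test through the DC arrays alone. The median log2 difference of the 10 was -0.35, against -0.03 over all genes, and -0.08 with the background from all genes. Leaving out a DC array also took ligands out of the test, so those medians are not over the same 10. Over the 8 ligands tested without DC replicate 2, 3 or 4, the median was 0.05, 0.006 and -0.04 in that order. Cxcl16 and Cxcl1, both negative, were not tested there. Over the 9 tested without DC replicate 1, where Cxcl16 was missing, it was -0.18. On the cB arrays, where 3 ligands were higher, Cd79b had 297 to 351 units, and on the DC arrays, where 4 were higher, Cd14 had 267 to 382 units. Other markers of the same lists went the other way: the B cell marker Pou2af1 was higher on DC arrays, and the myeloid markers Cd86 and Fscn1 were higher on cB arrays. The part of the stimulator cells in the ligand counts was not tested.

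Xcl1 encodes lymphotactin, the C-class chemokine that attracts the cross-presenting dendritic cells carrying Xcr1. Its intensity was 2610, 2858, 2636 and 2553 on the cB arrays, against 209, 310, 458 and 291 on the DC arrays. All cB arrays lay far above all DC arrays, and the DC arrays varied more among themselves. The log2 difference was 3.90 ± 0.36 (SE, limma adjusted p = 9.09e-06), which is 14.9-fold, and it was 3.02 in the authors' gene-level values. Leaving out DC replicate 1, the array with the lowest value, gave 3.52.

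Ccl9, a CC chemokine of the mouse that acts through Ccr1, had intensities of 823, 678, 774 and 700 on the cB arrays and 205, 236, 262 and 305 on the DC arrays. The groups were well apart, with the DC arrays near the negative controls. The difference on the log2 scale was 2.40 ± 0.26 (SE, limma adjusted p = 2.99e-05). As for other dim genes, the size rests on the background correction: it was 1.50 in the authors' values and 1.15 with the background estimated from all genes.

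Ccl3 (MIP-1 alpha) and Ccl4 (MIP-1 beta) are neighbouring genes for inflammatory CC chemokines. Ccl3 had 9862, 7115, 7721 and 8585 intensity units on the cB arrays, against 2271, 3059, 4520 and 2999 on the DC arrays. The lowest cB array lay above the highest DC array, with a log2 difference of 1.22 ± 0.18 (SE, limma adjusted p = 2.46e-04) and of 1.18 in the authors' values. Ccl4 had 19288, 16542, 17240 and 18096 units on the cB arrays and 17069, 18224, 22313 and 17138 units on the DC arrays. These ranges overlapped, and the log2 difference of -0.17 ± 0.13 (SE) did not pass (limma adjusted p = 0.279). DC replicate 3 was the highest of the DC arrays for both genes.

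Promoters are shown of the ligands called without overlap for which a sequence was available, Xcl1, Ccl9 and Ccl3, all higher in cB-stimulated cells. For Ccl5 and Cxcl16, which were higher in DC-stimulated cells, no promoter sequence was available. The promoter of Cxcl10, which did not pass, is also shown because it holds all 4 motifs searched. Sequences are from RefSeq (GRCm38.p6), each 300 bases from 250 before to 50 after the start site, 5′ to 3′ on the minus strand, at chr1:164935473-164935772 for Xcl1, chr11:83578587-83578886 for Ccl9, chr11:83649329-83649628 for Ccl3 and chr5:92348840-92349139 for Cxcl10. Capitals mark matches on either strand to a kappaB motif (GGGA, any 4 bases, CC), an NFAT core (TGGAAA), an AP-1 motif (TGANTCA) or an interferon-response motif (GAAA, any 2 bases, GAAA).
Xcl1: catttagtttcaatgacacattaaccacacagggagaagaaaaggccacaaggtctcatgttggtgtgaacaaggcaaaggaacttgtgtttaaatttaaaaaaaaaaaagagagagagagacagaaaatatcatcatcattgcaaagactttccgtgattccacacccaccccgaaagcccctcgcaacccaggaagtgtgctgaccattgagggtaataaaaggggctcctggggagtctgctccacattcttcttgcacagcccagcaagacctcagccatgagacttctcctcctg
Ccl9: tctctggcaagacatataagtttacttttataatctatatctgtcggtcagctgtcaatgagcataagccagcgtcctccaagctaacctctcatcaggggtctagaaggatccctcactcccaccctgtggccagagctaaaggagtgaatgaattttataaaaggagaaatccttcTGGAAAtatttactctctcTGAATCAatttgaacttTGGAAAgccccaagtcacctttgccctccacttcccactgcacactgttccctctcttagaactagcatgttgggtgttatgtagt
Ccl3: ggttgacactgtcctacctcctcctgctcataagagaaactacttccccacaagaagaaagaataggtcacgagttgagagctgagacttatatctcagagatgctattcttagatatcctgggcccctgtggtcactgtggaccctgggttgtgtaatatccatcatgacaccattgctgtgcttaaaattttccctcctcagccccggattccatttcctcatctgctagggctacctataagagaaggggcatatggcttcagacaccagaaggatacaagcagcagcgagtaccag
Cxcl10: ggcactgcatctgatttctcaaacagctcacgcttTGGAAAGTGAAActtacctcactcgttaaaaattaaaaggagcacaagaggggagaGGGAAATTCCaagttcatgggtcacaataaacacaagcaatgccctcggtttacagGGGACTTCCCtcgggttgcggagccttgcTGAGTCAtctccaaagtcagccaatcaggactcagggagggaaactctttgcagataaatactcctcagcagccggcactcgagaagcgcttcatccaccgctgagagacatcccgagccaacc
Ccl9 had 2 NFAT matches and 1 AP-1 match. In Cxcl10 there were 2 kappaB matches and 1 match of each other kind, with the NFAT and interferon-response matches overlapping. The windows of Xcl1 and Ccl3 held none of the 4, which says only that these letters are not there. Of all 32851 promoter windows of this length, 20.7% held the kappaB motif, 21.4% the NFAT core, 7.81% the AP-1 motif and 3.44% the interferon-response motif. Of the 11 tested members with a window in the table, 5, 3, 3 and 1 held them in that order in at least 1 window. These counts are per gene, with up to 3 windows each, whereas the percentages are per single window, so they are not on a like scale. The kappaB match of Ccr6 was in 1 of its 2 windows, and the AP-1 match of Ccl27 in 1 of its 3.

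Ccl5 (RANTES), a CC chemokine of effector and memory T cells, had 337, 255, 339 and 373 intensity units on the cB arrays, against 788, 1025, 533 and 1370 on the DC arrays. Every DC array was above every cB array, and the DC arrays ranged over more than 2-fold. The log2 difference was -2.14 ± 0.36 (SE, limma adjusted p = 5.05e-04), and -1.54 in the authors' values. DC replicate 3, the lowest of the DC arrays for Ccl5, was also the lowest of them for the myeloid markers Cd14 (267 against 316, 321 and 382), Il1b (212 against 321, 311 and 342) and Lyz2 (156 against 209, 200 and 205). It was the highest of them for the myeloid markers Cd68 (436 against 323, 315 and 307) and Cst3 (3553 against 3312, 3316 and 3310). Without it the Ccl5 difference was -2.53.

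Cxcl16, the membrane-bound ligand of Cxcr6, had 165, 155, 182 and 181 intensity units on the cB arrays, where it was not detected, against 361, 377, 296 and 399 on the DC arrays. On the reported background correction it was at least 5.02-fold higher in DC-stimulated cells, a bound set by the lowest detected signal or the gene's own value on each cB array, which does not hold on the other scales. It passed the detection filter through the DC arrays alone, so that among tested genes it had to differ, and was not tested when any of them was left out. The fitted log2 difference was -2.71 ± 0.22 (SE, limma adjusted p = 4.55e-06). The size rests on the background correction, being -1.14 in the authors' values and -0.46 with the background from all genes. DC replicate 3 was again the lowest of the DC arrays, as for Cd14, Il1b and Lyz2 and unlike Cd68 and Cst3.

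Cxcl10, an interferon-inducible ligand of Cxcr3, had 266, 297, 256 and 325 intensity units on the cB arrays and 481, 439, 234 and 391 on the DC arrays. DC replicate 3 was the lowest of all 8 arrays and the other three DC arrays were above every cB array. The log2 difference of -0.79 ± 0.47 (SE) did not pass (limma adjusted p = 0.171). Without DC replicate 3 it was -1.30 and passed (limma adjusted p = 0.00335). On leaving out any other single array it did not pass (limma adjusted p between 0.123 and 0.361). Cxcl9, another interferon-inducible Cxcr3 ligand, was detected on cB replicate 1 alone (191 units) and was not tested.

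The other ligands were close to background. Ccl27 (now Ccl27a, a skin chemokine) had 188 to 291 units in cB and 235 to 365 in DC, with overlap, and a log2 difference of -0.63 ± 0.23 (SE, limma adjusted p = 0.0401). Its row cannot be told from the near-identical Ccl27b here. Cxcl1, a neutrophil attractant, had 158 to 190 units in cB and 180 to 206 in DC, with overlap (-0.53 ± 0.21, SE, limma adjusted p = 0.0455). Both calls are weak: that of Ccl27 was lost under 9 of 17 alternatives and that of Cxcl1 under 10 of the 12 that tested it. Ccl25, a thymic and gut chemokine, was detected on all 8 arrays at 193 to 225 units in cB and 178 to 211 in DC, and did not pass (0.22 ± 0.16, SE, limma adjusted p = 0.258). Ccl17, a ligand of Ccr4 made by dendritic cells, had 177, 165, 155 and 180 units on the cB arrays, where it was not detected, and 185, 219, 223 and 272 on the DC arrays, where it was detected on 3. With no detection filter its difference was -1.23 (limma adjusted p = 0.00905). Ccl19, a ligand of Ccr7, and Cxcl2, a neutrophil attractant, were each detected on 1 DC array and on no cB array, at 187 and 193 units.

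**Figure D2:**
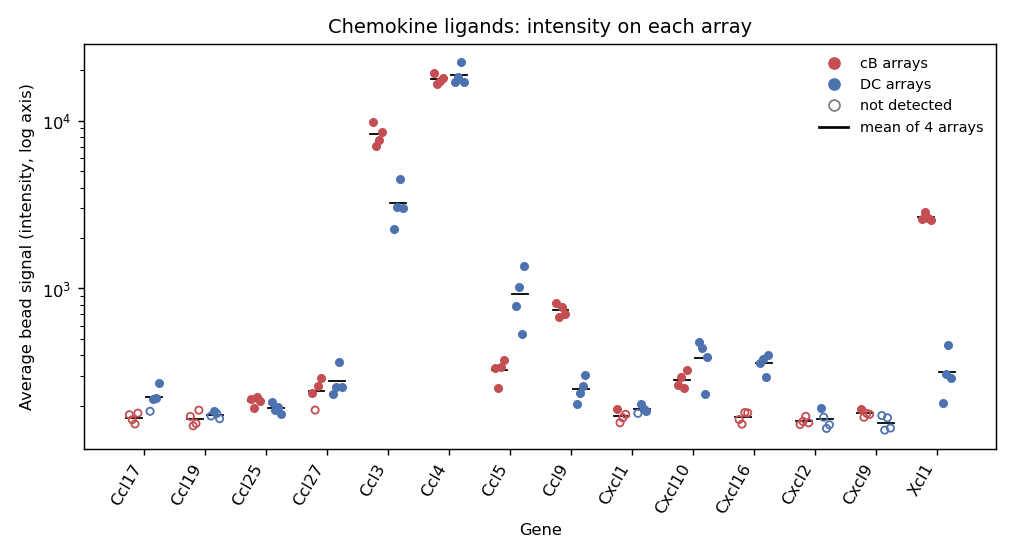
Intensity (log axis) of the 14 ligands detected on at least 1 array, with cB arrays in red and DC arrays in blue, open circles where not detected, and a line at the mean of the 4 arrays. Xcl1, Ccl9 and Ccl3 lie higher on every cB array, Ccl5 and Cxcl16 on every DC array, and Ccl4 overlaps.

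Several CC ligands lie side by side in the mouse genome, and the neighbours differed in direction. In the RefSeq order on chromosome 11, Ccl5, Ccl9, Ccl6, Ccl3 and Ccl4 follow each other with no other protein-coding gene between them. Their log2 differences in that order were -2.14 for Ccl5, 2.40 for Ccl9, 1.22 for Ccl3 and -0.17 for Ccl4, and Ccl6 was detected on no array. A second run on the same chromosome, with Ccl2, Ccl7, Ccl11 and Ccl1, was detected on none. On chromosome 9, of the receptor genes Ccr9, Cxcr6, Xcr1, Ccr1, Ccr1l1, Ccr3 and Ccr2, which lie next to each other apart from Fyco1, only Cxcr6 was detected.

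**Figure D3:**
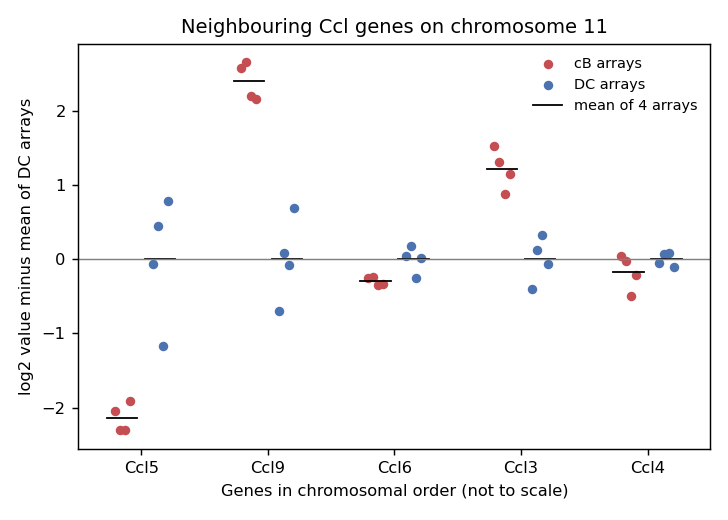
Log2 value of each array minus the mean of the DC arrays, for 5 neighbouring genes of chromosome 11 in chromosomal order, with cB arrays in red, DC arrays in blue and a line at each mean. The cB mean lies at -2.14 for Ccl5, 2.40 for Ccl9, 1.22 for Ccl3 and -0.17 for Ccl4, and Ccl6 was not detected on any array.

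Among the receptors, Ccr7, Cxcr4, Cxcr5 and Cxcr3 were higher in DC-stimulated cells, and Ccr6 was higher in cB-stimulated cells, each without overlap. Of the 7 receptors tested, 2 were higher in cB and 4 higher in DC, with 6 called in all, beside 29.8%, 31.6% and 61.4% of all genes. The groups did not overlap in 5 of the 7 (56.8% of all genes tested). Ccr6 is among those higher in cB although it entered the test through the cB arrays alone. The median log2 difference of the 7 was -1.05, and it was -0.51 over the 8 receptors in the authors' values and 0.02 over all 18 with no detection filter. Ccr6 was not tested when any cB array was left out, so that 6 receptors were tested there. Without cB replicate 1, and likewise without cB replicate 4, no receptor was called higher in cB. The number was 1 without cB replicate 2 or 3 or DC replicate 1 or 2, and 3 without DC replicate 4, while Ccr7, Cxcr3, Cxcr4 and Cxcr5 were higher in DC in every case. Ccr8 was among those 3, and without DC replicate 4 it was detected on cB arrays alone. With the background from all genes, 1 receptor was higher in cB, against 4 that were higher in DC. Beside the 4 receptors higher in DC stand the myeloid marker Cd14, at 267 to 382 units on DC arrays, and the B cell marker Pou2af1, at 687 to 1030. The myeloid markers Cd86 and Fscn1 and the B cell markers Cd79b and Fcmr were higher on cB arrays. The part of the stimulator cells in the receptor counts was not tested.

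Ccr7, which responds to Ccl19 and Ccl21 and brings naive T cells and mature dendritic cells to lymph nodes, had 1392, 848, 1537 and 918 intensity units on the cB arrays, against 4363, 3884, 4819 and 3615 on the DC arrays. All DC arrays were above all cB arrays, with a log2 difference of -2.17 ± 0.18 (SE, limma adjusted p = 3.90e-06) and -2.02 in the authors' values. On leaving out each array in turn it stayed between -2.28 and -2.01.

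Cxcr4, the receptor of Cxcl12 that retains lymphocytes in bone marrow, had 251, 184, 332 and 316 intensity units on the cB arrays, against 523, 497, 700 and 832 on the DC arrays. The groups did not overlap, and cB replicate 2 was close to the negative controls. This gave a log2 difference of -2.22 ± 0.30 (SE, limma adjusted p = 1.34e-04), -1.34 in the authors' values and -0.95 with the background from all genes.

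Cxcr5 is the receptor of Cxcl13 and marks B cells and T cells that enter follicles. It had 421, 461, 516 and 415 intensity units on the cB arrays, against 812, 803, 1469 and 896 on the DC arrays. Every DC array lay above every cB array, and DC replicate 3 stood above the other DC arrays. The log2 difference was -1.53 ± 0.21 (SE, limma adjusted p = 1.26e-04), -1.18 in the authors' values and -1.37 without DC replicate 3. Its direction was opposite to that of the B cell markers Cd79b and Fcmr and the same as that of Pou2af1.

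Cxcr3, the receptor of Cxcl9, Cxcl10 and Cxcl11 on effector T cells, had 547, 406, 431 and 513 intensity units on the cB arrays, against 785, 669, 1009 and 663 on the DC arrays. The groups did not overlap, with a log2 difference of -1.05 ± 0.18 (SE, limma adjusted p = 6.47e-04) and -0.79 in the authors' values.

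Ccr6, the receptor of Ccl20, is expressed by B cells and some T cells. It had 268, 279, 229 and 189 intensity units on the cB arrays and 164, 148, 161 and 157 on the DC arrays, where it was not detected. On the reported background correction it was at least 1.86-fold higher in cB-stimulated cells, which does not hold on the other scales. It passed the detection filter through the cB arrays alone, so that among tested genes it had to differ, and it was not tested when any of them was left out. The fitted log2 difference was 1.52 ± 0.38 (SE, limma adjusted p = 0.00596), but 0.57 in the authors' values and 0.17 with the background from all genes. On the same cB arrays Cd79b had 351, 319, 319 and 297 units, and it was not detected on DC arrays. Of 5 B cell markers tested, 3 were higher in cB and 1, Pou2af1, was higher in DC, beside 29.8% and 31.6% of all genes. Cd22, Pax5 and Cr2 were detected on no array. The part of B cells in the Ccr6 difference was not tested. The detection p of Ccr6 does not lie on the step of the negative controls and need not follow its intensity.

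Ccr8, the receptor of Ccl1, was detected on all cB arrays (240, 246, 208 and 271 units) and on 1 DC array, replicate 4 (175, 169, 176 and 250 units). Its log2 difference of 0.88 ± 0.42 (SE) did not pass (limma adjusted p = 0.0927). Without DC replicate 4, the highest of the DC arrays, it was 1.31 and passed (limma adjusted p = 0.00375). In that fit Ccr8 passed the detection filter through the cB arrays alone, so that among tested genes it had to differ. It also passed without cB replicate 3 (1.11, limma adjusted p = 0.0414) and with median scaling in place of quantile normalization (0.90, limma adjusted p = 0.036).

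Cxcr6 and Cx3cr1 were detected on fewer than 4 arrays and were not tested. Cxcr6 had 182, 157, 166 and 187 units on the cB arrays, with no detection, and 197, 172, 214 and 217 on the DC arrays, with detection on 3. With no detection filter its log2 difference was -0.73 (limma adjusted p = 0.0174). Cx3cr1, the fractalkine receptor of cytotoxic cells, was detected on 1 array of each group, at 215 units on cB replicate 4 and 192 on DC replicate 1.

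**Figure D4:**
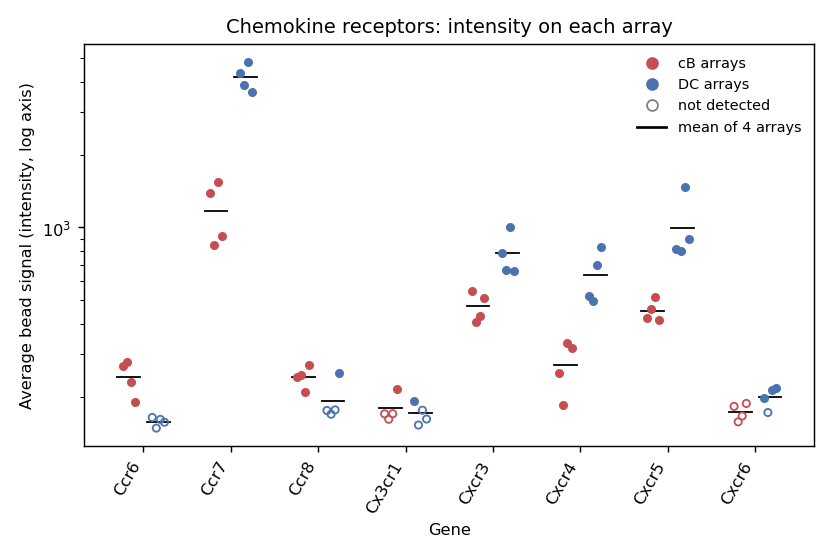
Intensity (log axis) of 8 of the 9 receptors detected on at least 1 array, with cB arrays in red and DC arrays in blue, open circles where not detected, and a line at the mean of the 4 arrays. Ccr7, Cxcr3, Cxcr4 and Cxcr5 lie higher on every DC array, and Ccr6 on every cB array.

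Set side by side, ligands and their receptors were seldom both detected. Xcl1 was detected on all arrays while its receptor Xcr1 was detected on none. Ccl3, Ccl5 and Ccl9 were detected on all arrays while Ccr1, a receptor they share, was detected on none. Cxcl10 and Cxcr3 were both detected on all 8 arrays. Cxcl16 and Cxcr6 were both detected on DC arrays alone, on 4 and on 3 of them. For Cxcr4, Cxcr5, Ccr6 and Ccr8 the ligands Cxcl12, Cxcl13, Ccl20 and Ccl1 were detected on no array. For Ccr7, Ccl21a and Ccl21c were detected on none and Ccl19 on 1. The rows of Ccl21a and Ccl21c stand for near-identical gene copies, which a probe may not separate. The ligands Ccl25 and Ccl27 were detected without Ccr9 and Ccr10.

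Of the 10 ligands tested, 8 had a larger SD on the log2 scale over the DC arrays than over the cB arrays, as had 2 of the 7 receptors and 41.7% of all genes tested. By the normalized log2 values, DC replicate 3 was the highest of the DC arrays for Ccl27, Ccl3, Ccl4, Xcl1, Cxcr3 and Cxcr5 and the lowest for Ccl5, Cxcl10, Cxcl16 and Ccr8. DC replicate 4 was the highest for 7 of the 17 members, Ccl5, Ccl9, Cxcl16 and Cxcr4 among them. No array was the extreme of its group in one direction for all 17.

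Of the 13 members called, 10 kept the call and its direction under every alternative that tested them, while 3 lost it under at least 1, Ccl27 and Cxcl1 among them. The sizes varied more than the calls. For the bright genes Ccl3, Ccl4 and Ccr7 the settings gave nearly the same differences. For Cxcl16, Ccr6 and Ccl9, whose lower group lay near background, they gave very different ones.

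**Figure D5:**
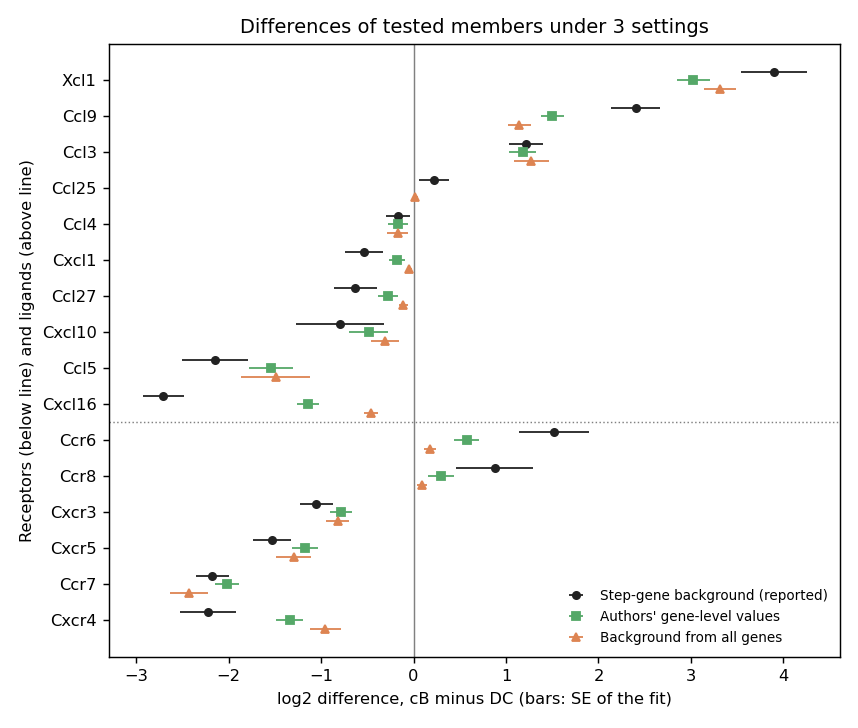
Log2 difference, cB minus DC, with the SE of the fit, for the 10 ligands (above the dotted line) and 6 of the 7 receptors tested, under the reported background correction, in the authors' gene-level values (15 of these 16 are listed there) and with the background from all genes. Xcl1 lies at 3.90, 3.02 and 3.31 and Cxcl16 at -2.71, -1.14 and -0.46 under the 3 settings.

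Other genes of the chemokine system moved both ways. All 6 atypical or related receptors listed were in the table, Ackr3 as the member Cxcr7, and 1 was tested, Ccrl2. This atypical receptor, which presents chemerin, had 194, 156, 202 and 251 units on the cB arrays, against 581, 535, 600 and 524 on the DC arrays. Its log2 difference was -3.06 ± 0.26 (SE, limma adjusted p = 5.08e-06) and -1.58 in the authors' values, higher in DC. Ccrl2 is known from activated dendritic cells and macrophages, and Cd14 had 267 to 382 units on the same DC arrays. Of 7 myeloid and dendritic cell markers tested, 5 were higher in DC and 2, Cd86 and Fscn1, were higher in cB. These counts stand beside 31.6% and 29.8% of all genes. The part of dendritic cells in the Ccrl2 difference was not tested. Among 4 chemoattractants with other names, Cklf was higher in DC (-0.72) and Mif was not (0.01). Ppbp was detected on no array.

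Of 27 genes of receptor signalling, 25 were in the table and 19 were tested, of which 4 were higher in cB, 5 higher in DC and 10 not called (median -0.07), so that 9 of 19 were called beside 61.4% of all genes. Higher in cB were Tiam1, an exchange factor for Rac (2.73 ± 0.12, SE, limma adjusted p = 7.41e-08), the G protein subunit gene Gng2 (1.16), the Rap1 effector gene Rassf5 (0.86) and the actin regulator gene Coro1a (0.64). Tiam1 had 593 to 822 units on cB arrays against 214 to 227 on DC arrays, and its difference was 1.63 in the authors' values. Higher in DC were the kinase gene Ptk2b (-1.59), the GTPase gene Rap1b (-1.05), the kinase gene Rock1 (-0.86) and the adaptor gene Crk (-0.57). Gnai2, Gnb1, Gnb2, Rac1 and Rac2, which encode G protein subunits and Rac GTPases downstream of chemokine receptors, did not pass, with differences between -0.25 and -0.05. Of 14 genes that switch receptors off, 9 were tested, of which 2 were higher in cB, 1 was higher in DC and 6 were not called, beside 61.4% called of all genes. Grk6 (1.66, in the table as Gprk6) and Adrbk1 (0.36), which encode receptor kinases, were higher in cB. Rgs3 (-0.87), which speeds the shut-off of G proteins, was higher in DC. Of 5 genes that modify chemokines or their receptors, 4 were tested, with 2 higher in cB and 2 higher in DC, beside 29.8% and 31.6% of all genes. The sulfotransferase gene Tpst1 (1.38) and Dpp4 (0.87), whose product trims chemokines, were higher in cB. Tpst2 (-0.37) and Adam17 (-0.38), a sheddase gene, were higher in DC.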

How the data were processed

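Arrays were Illumina mouse-ref8-v2.0 beadchips, as the labels say, and groups and replicate numbers came from the sample titles. The deposited table without normalization holds an intensity (linear average bead signal) and a detection p-value per gene name, per the file headers. Normalized log2 values that the authors deposited for 7266 genes were made by a method not given in the sources used here. For 15 tested members they gave the differences of uncorrected, quantile-normalized intensities within 0.001. Probe-level values carry no gene names and were not used. Detection p-values of 13929 genes were multiples of 1 part in 798 (tolerance 0.001 of a step). Those of 4209 others, Ccl25, Ccl27 and Ccr6 among them, were not.

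Per array, genes on the step gave the background estimate with limma 3.58.1 in R 4.3.3, followed by normexp (offset 16), quantile normalization, lmFit and eBayes, with Benjamini-Hochberg adjustment over all 7167 genes tested. For "at least" folds each dim array counted at its lowest detected signal among genes on the step, or at the gene's own value if higher. Members, lists and the background setting were chosen with earlier results of these data known. One receptor, which is among the counts, is not reported here. Named were all other members and, of each list, the 4 called genes of lowest p in each direction. The G protein and Rac genes named as not passing were chosen after their values were seen. Alternatives varied background, offset, scaling, filter, block, weights and arrays. All 53 member names matched RefSeq genes (GRCm38.p6), 50 by symbol and 3 by synonym. The fit was tested on simulated data. Of 10 T cell markers tested, 2 passed as higher in cB and 4 as higher in DC, beside 29.8% and 31.6% of all genes tested. The one NK marker tested, Klrd1, was not called (-0.67).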

Additional observations from a re-analysis of the deposited data

Results flagged for a closer look

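In 46 sets of 4 arrays, those of each group for each member detected on at least 1 array, a single array stood apart 4 times, by a gap to its nearest neighbour that took most of the range of the 4 normalized log2 values. Such gaps are found in about 1 in 20 sets by chance. DC replicate 4 was the highest for Ccr8 (250 units, gap 0.929 of the range). DC replicate 3 was the highest for Cxcr5 (1469 units, gap 0.868). DC replicate 2 was the highest for Ccl19 (187 units, gap 0.906), where it was the one array with detection. For Cxcl1 it was cB replicate 1 (190 units, gap 0.845), likewise the one cB array with detection.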

How the results depend on the processing

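Of 17 alternatives run, none turned the direction of a tested member. The count of ligands called was 7, and between 4 and 7 on leaving out each array in turn, with 4 without DC replicate 2 or DC replicate 4, where 8 ligands were tested. The count of receptors called was 6, and between 4 and 7 on leaving out arrays, with 6 receptors tested where a cB array was left out. Over all genes 4397 were called, and between 3980 and 4181 on leaving out arrays. The counts of ligands, receptors and pathway genes stayed within 1.5 times of the reported ones under the other alternatives. With the replicate number as a block, 4431 genes, 7 ligands and 6 receptors were called; Cxcl10 and Ccr8 passed (limma adjusted p = 0.0415 and 0.0426), and Cxcl1 did not (0.0673). Same-numbered arrays deviated together with correlations of 0.113, 0.128, 0.175 and 0.0824, each array correlating best with its own number, a hint from the data, since the labels tie the numbers to nothing shared. Signal over background is the limit: a gene near the negative controls has no dependable fold. With a detection p below 0.01, the ligands and receptors detected on at least 1 array numbered 11 and 9.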
